A study of Mus musculus with 18 samples.

Results

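Ndufa4l2 and 9 further genes known as hypoxia targets outside glycolysis were examined in RNA sequencing of mouse bone marrow MSCs, plastic-adherent stromal cells cultured from marrow. The 10 genes, Ndufa4l2, Bnip3, Bnip3l, Ankrd37, Car9, Car12, Higd1a, Ddit4, Kdm3a and Bhlhe40, were chosen by name from the 27179 genes of the table, with earlier results of these data in view. Their differences between groups are therefore given as a description and without a p. All MSCs were primary cells of C57BL6 mice, described in the study's methods as male, and each group had 6 libraries taken on day 7 of culture. Young MSCs came from mice of 6 weeks and old MSCs from mice of 18 to 24 months, and neither received a treatment. Rejuvenated old MSCs were old MSCs kept for 7 days in co-culture with young MSCs, the 2 populations being parted by a Transwell membrane with 0.4 µm pores, at 100000 old cells per replicate. Secreted molecules could thus reach the old MSCs, but no young MSCs. Since no co-culture of old with old MSCs was analysed here, an effect of co-culture as such and an effect of the partner's young age cannot be told apart. The labels call the libraries biological replicates but tie none to a mouse, and all p-values below measure the spread between these libraries only.

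Cells sense oxygen through hydroxylases. In well oxygenated cells the prolyl hydroxylases (Egln1, Egln2 and Egln3) mark the HIF-α subunits for destruction by the Vhl ubiquitin ligase, and when oxygen is short the HIF-α subunits persist, pair with Arnt and bind short hypoxia response elements near their targets. Many targets are glycolytic enzymes. The genes described here serve other ends of the response: they restrain or remove mitochondria, keep the pH, slow growth and alter chromatin. Several of them also answer to signals other than oxygen, among them Ddit4, which is raised by glucocorticoids and by the ATF4 stress pathway.

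The core of the hypoxia response element, ACGTG or GCGTG, was searched on both strands in the 250 bases before each annotated start in RefSeq's promoter sequences (GRCm38.p6, mm10). Of the 10 genes, 7 were matched there (Car9, Kdm3a, Bnip3, Ankrd37, Car12, Higd1a and Ddit4), and Ndufa4l2, Bnip3l and Bhlhe40 were not. The core was found for 6 of these 7 genes, against 59.9% of the genes tested for expression that have a window and 41.5% of all genes with a window. The windows of the matched genes had a median GC content of 67.6%, against 59.6% for windows of genes tested and 52.4% for all windows, and the core itself holds a CpG. Below are the parts of the Bnip3 and Ddit4 windows that lie outside the gene in both the RefSeq and the GENCODE M21 annotation, shown because they hold more than 1 core. Each reads 5′ to 3′ on the gene's strand, with the core and its reverse complement in capitals.
Bnip3 (chr7:138909520-138909756, minus strand): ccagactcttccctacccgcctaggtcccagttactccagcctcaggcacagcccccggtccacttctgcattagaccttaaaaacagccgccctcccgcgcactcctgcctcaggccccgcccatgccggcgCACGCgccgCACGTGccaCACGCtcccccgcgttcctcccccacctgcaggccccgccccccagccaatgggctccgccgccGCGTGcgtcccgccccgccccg
Ddit4 (chr10:59951835-59952020, minus strand): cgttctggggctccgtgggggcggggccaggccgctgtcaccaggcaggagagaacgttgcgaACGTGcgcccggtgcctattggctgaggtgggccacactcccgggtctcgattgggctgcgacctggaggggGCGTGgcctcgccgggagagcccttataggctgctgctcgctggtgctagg

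In the Bnip3 stretch the capitals CACGTG are the core read on both strands at once. This palindrome was present in 8.10% of windows of genes tested and 6.02% of all windows. The cores of Car9, Kdm3a and Higd1a lay inside a first exon that GENCODE M21 gives the same gene. For Car9 and Higd1a this exon begins before the RefSeq span of the gene. The Kdm3a, Ankrd37 and Car12 windows precede a start that lies within the RefSeq span of the gene. Of these genes only 30 bases around a core are shown, and Car12, whose window held none, is not shown. In each stretch only 1 core is in capitals. A further core, GCGTG, begins with the last of the capitals in the Higd1a stretch. Another GCGTG overlaps the capitals in the Ankrd37 stretch, and the Ankrd37 window held 4 cores.
Ankrd37 (chr8:45999988-46000017, minus strand): accttcactgcgCACGCgtgctgcggccgc
Car9 (chr4:43506996-43507025, plus strand): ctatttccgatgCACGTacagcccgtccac
Kdm3a (chr6:71632927-71632956, minus strand): ccgggaggctgtGCGTGtcttgtgagagag
Higd1a (chr9:121857849-121857878, minus strand): ccggtctagcctGCGTGcgtggcgttcgcg
A match is a stretch of letters and not a measured binding site, and no match says only that these letters were absent from this window.

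Gene positions are those of GRCm38 (mm10). The values are the study's normalized counts, reads per gene divided by 1 size factor per library. The libraries held 22936251 to 29559194 reads on genes, with group medians from 24296356 (young) to 28604258.5 (rejuvenated old). Differences are between group means of log2(normalized count + 1), with the standard error from limma over all 18 libraries, and a gene was called at a Benjamini-Hochberg adjusted p under 0.05 among 14353 genes whose mean reached 10. All 10 genes passed this filter. Between old and rejuvenated old MSCs 9 of the 10 were called, 8 of them higher and 1 lower, where 41.6% of all genes tested were called (21.0% higher and 20.6% lower). Between old and young MSCs all 10 were called, 9 higher and 1 lower in young, where 85.7% of all genes tested were called (41.6% higher and 44.1% lower), so a call in that comparison says little. The 6 libraries of each group lay apart without overlap for 7 genes in the first comparison (6 higher and 1 lower), against 22.0% of all genes tested (10.4% higher and 11.6% lower). In the second they lay apart for all 10 (9 higher and 1 lower), against 73.9% (35.7% higher and 38.2% lower). Between young and rejuvenated old MSCs 9 genes were called, 6 higher and 3 lower in young, where 85.6% of all genes tested were (41.5% higher and 44.1% lower), and the libraries of the same 6 and 3 lay apart, against 70.5% (34.0% higher and 36.5% lower). The median difference of the 10 genes was 0.47 between rejuvenated old and old MSCs (0.01 over all genes tested) and 1.73 between young and old MSCs (−0.02 over all genes tested). Nothing is read from these counts about the 10 genes, since they were chosen with such values known.

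**Figure D1:**
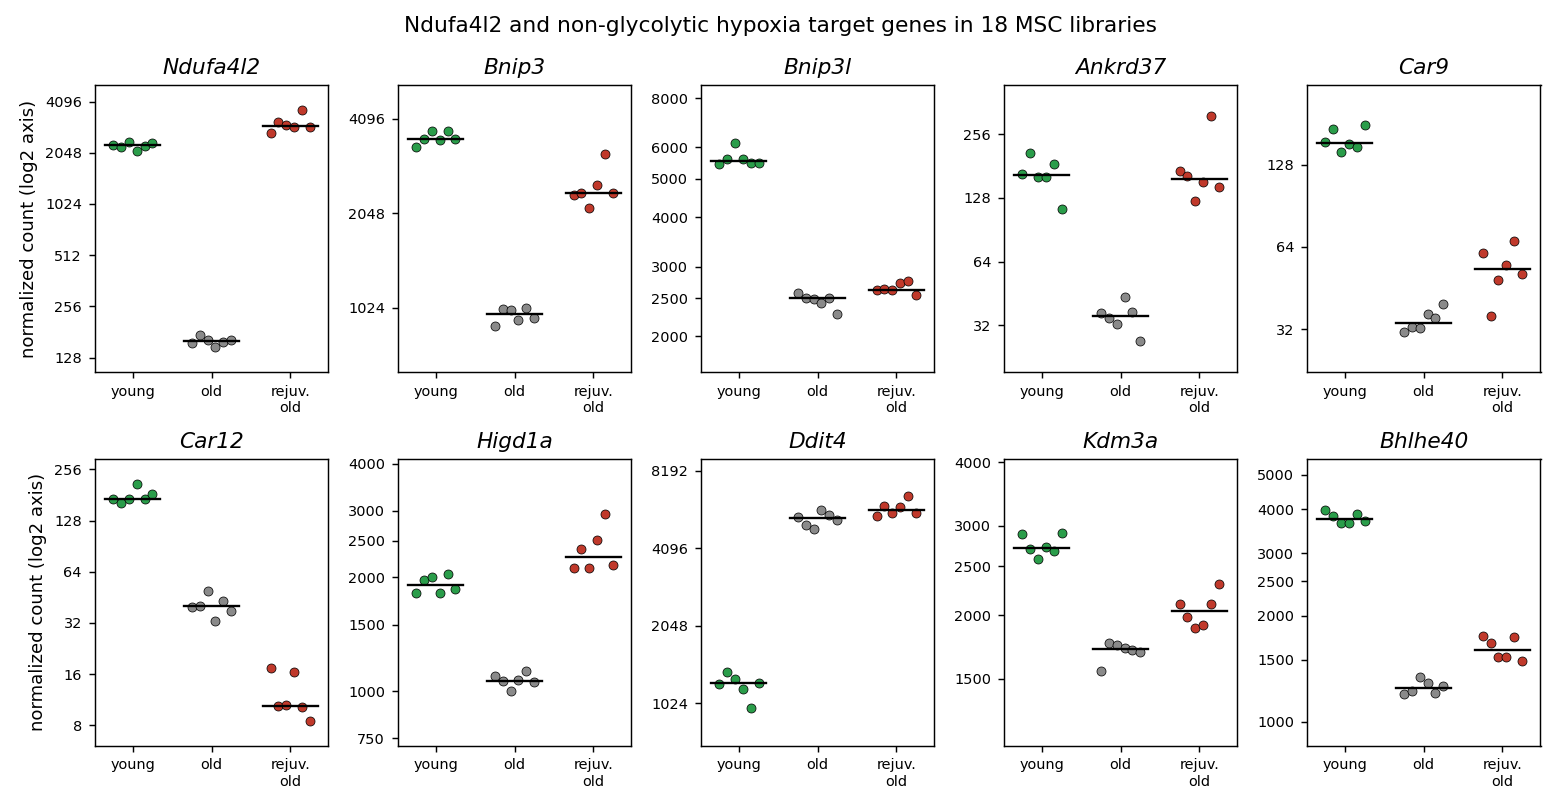
Normalized counts (vertical log2 axes, which differ between panels) of the 10 genes in each library of young, old and rejuvenated old MSCs; each point is a library, in the order of its replicate number, and the bar is the group median. Rejuvenated old libraries lie above the young ones for Ndufa4l2 and Higd1a, beside the old ones for Bnip3l and Ddit4, and below both other groups for Car12.

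Ndufa4l2 differed most of the 10 genes in both comparisons with old MSCs. It (Entrez gene 407790, chr10:127509274-127517154) encodes a mitochondrial protein related to Ndufa4, a subunit of respiratory complex IV, and is known as a HIF-1 target that lowers oxygen consumption. In old MSCs Ndufa4l2 was low, with 147 to 173 normalized counts (median 160). In young MSCs it had 2097 to 2353 (median 2258.5), and in rejuvenated old MSCs 2686 to 3662 (median 2942). The 3 groups did not overlap, and every rejuvenated old library lay above every young library. On the log2 scale Ndufa4l2 was 4.23 ± 0.06 (SE, n = 6 per group) higher in rejuvenated old than in old MSCs, a 19.0-fold ratio of the means, and 3.81 ± 0.06 higher in young than in old MSCs. It was 0.42 ± 0.06 lower in young than in rejuvenated old MSCs.

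Bnip3 (Entrez gene 12176, chr7:138890836-138909506) encodes a receptor of the outer mitochondrial membrane that hands mitochondria to autophagosomes. It had 895 to 1019.6 normalized counts (median 976) in old, 2125 to 3174 (median 2374) in rejuvenated old and 3339 to 3753 (median 3530.4) in young MSCs. Rejuvenated old libraries thus lay between the other groups, without overlap. The log2 difference from old MSCs was 1.35 ± 0.06 in rejuvenated old and 1.88 ± 0.06 in young MSCs. The median difference of the 1032 genes tested on chromosome 7 was 0.61 between young and old MSCs and 0.06 between rejuvenated old and old MSCs, and the part of this shift in the young value of Bnip3 was not tested.

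Bnip3l (also called Nix, Entrez gene 12177, chr14:66985238-67008877), the related mitophagy receptor, behaved otherwise. Its 2545 to 2764 normalized counts in rejuvenated old MSCs (median 2627) overlapped the 2276 to 2574 of old MSCs (median 2496), while young MSCs had 5443 to 6166 (median 5536). The log2 differences from old MSCs were 0.11 ± 0.03 in rejuvenated old and 1.19 ± 0.03 in young MSCs. The annotation holds 1 pseudogene named after Bnip3l, and its reads could be shared with it.

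Higd1a (Entrez gene 56295, chr9:121848557-121857796) encodes a small protein of the inner mitochondrial membrane that supports cell survival when oxygen is short. Old MSCs had 1004 to 1134 normalized counts (median 1067), young MSCs 1821 to 2041 (median 1914) and rejuvenated old MSCs 2114 to 2943 (median 2264). As for Ndufa4l2, all rejuvenated old libraries lay above all young ones, with a log2 difference from old of 1.14 ± 0.06 in rejuvenated old and 0.84 ± 0.06 in young MSCs.

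**Figure D2:**
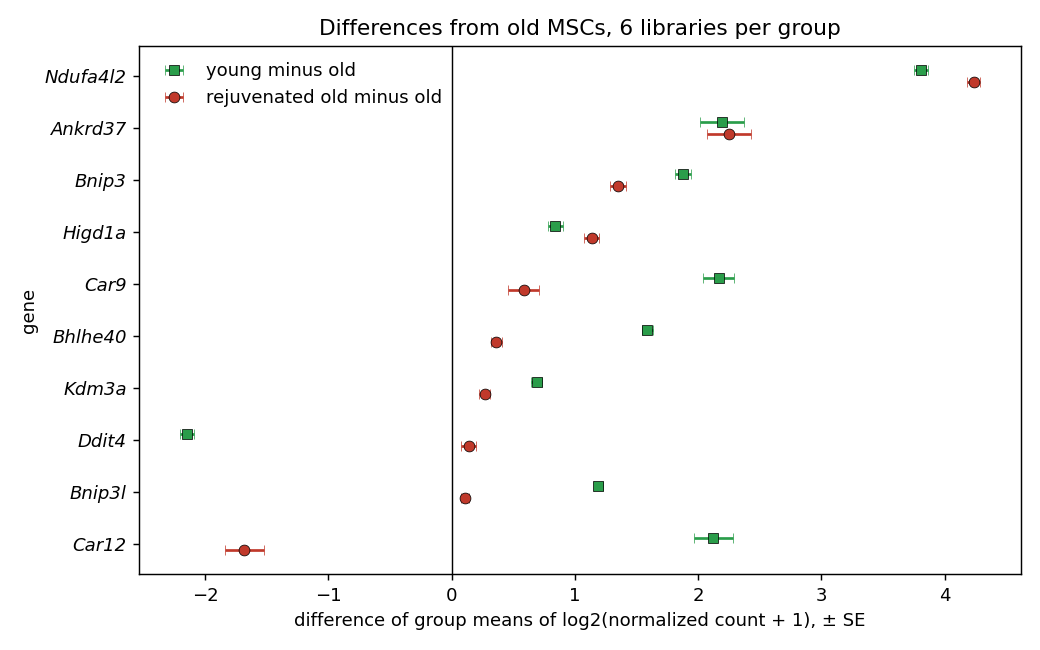
Difference of the group means of log2(normalized count + 1) from old MSCs (horizontal axis) for each of the 10 genes, with its standard error, in rejuvenated old MSCs (circles) and young MSCs (squares), 6 libraries per group. Both contrasts use the same old libraries. Car12 and Ddit4 are the genes for which the symbols lie on opposite sides of 0.

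The transmembrane carbonic anhydrases, which turn carbon dioxide into bicarbonate at the cell surface and so set the pH around the cell, differed from each other. Car9 (Entrez gene 230099, chr4:43507026-43513729) had 31.2 to 39.4 normalized counts in old (median 33.8), 35.9 to 67.1 in rejuvenated old (median 53.0) and 143 to 179 in young MSCs (median 154). Old and rejuvenated old libraries overlapped, and the log2 difference between them was 0.59 ± 0.13, against 2.17 ± 0.13 between young and old MSCs. Car12 (Entrez gene 76459, chr9:66712296-66766845) went the other way. It had 32.7 to 49.6 normalized counts in old MSCs (median 40.1) and 8.49 to 17.5 in rejuvenated old MSCs (median 10.4), with 163 to 212 in young MSCs (median 172). No groups overlapped, and Car12 was 1.68 ± 0.16 lower on the log2 scale in rejuvenated old than in old MSCs but 2.12 ± 0.16 higher in young MSCs. The rejuvenated old libraries held 9 to 17 reads of Car12 each, so its lowest level rests on few reads.

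Ddit4 (REDD1, Entrez gene 74747, chr10:59949675-59951770), an inhibitor of mTORC1, was the gene that was lower in young MSCs. Its normalized counts were 981 to 1361 in young (median 1225), 4869 to 5769 in old (median 5352) and 5457 to 6525 in rejuvenated old MSCs (median 5774). Rejuvenated old and old libraries overlapped, with a log2 difference of 0.14 ± 0.06, and young MSCs lay 2.15 ± 0.06 below old MSCs. Ddit4 was the gene not called between rejuvenated old and old MSCs, but the call turned under 4 of 29 alternatives: it was made with only those 2 groups in the fit, without old replicate 4, without rejuvenated old replicate 1 and without young replicate 5.

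Kdm3a and Bhlhe40 act in the nucleus. Kdm3a (Entrez gene 104263, chr6:71588970-71632990) encodes a histone H3 lysine 9 demethylase that itself needs oxygen. It had 1552 to 1765 normalized counts in old (median 1719.5), 1885 to 2303 in rejuvenated old (median 2044) and 2583 to 2904 in young MSCs (median 2717). Bhlhe40 (DEC1, Entrez gene 20893, chr6:108660629-108666925), a transcriptional repressor tied to the circadian clock, had 1199 to 1338 in old (median 1247), 1489 to 1746 in rejuvenated old (median 1601) and 3655 to 3967 in young MSCs (median 3757). For both genes the rejuvenated old libraries lay apart from and between the others. The log2 differences of rejuvenated old from old MSCs were 0.27 ± 0.05 for Kdm3a and 0.36 ± 0.04 for Bhlhe40, smaller than the 0.69 ± 0.05 and 1.59 ± 0.04 of young from old MSCs.

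Ankrd37 (Entrez gene 654824, chr8:45996908-46000414), which encodes a small ankyrin repeat protein and is known as a HIF-1 target, had low counts and the widest spread. Old MSCs had 26.9 to 43.6 normalized counts (median 35.5), young MSCs 113 to 209 (median 164) and rejuvenated old MSCs 124 to 312 (median 157). Young and rejuvenated old libraries overlapped, and both lay above the old ones. The log2 difference from old MSCs was 2.25 ± 0.18 in rejuvenated old and 2.20 ± 0.18 in young MSCs.

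Set against their exon length, the order of the genes changed between groups. In normalized counts per kilobase of annotated exons, Ndufa4l2 had rank 1 in young MSCs (median 2063), rank 7 in old MSCs (median 146) and rank 2 in rejuvenated old MSCs (median 2687). Ddit4 had rank 1 in old MSCs (median 3050) and in rejuvenated old MSCs (median 3290), where its libraries overlapped those of Ndufa4l2. In young MSCs Ddit4 had rank 5 (median 698) and overlapped Higd1a (median 630), and Bnip3 (median 1559) overlapped Bnip3l (median 1435). In old MSCs no neighbours in this order overlapped. Ankrd37, Car9 and Car12 held the last places in every group, where Car12 had medians of 22.7 (young), 5.28 (old) and 1.37 (rejuvenated old).

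Some of these genes share sequence with another gene on the map. In the RefSeq annotation Shmt2, which encodes the mitochondrial serine hydroxymethyltransferase, overlaps Ndufa4l2, Ufsp2 overlaps Ankrd37, and Arhgef39 and Tpm2 overlap Car9. The pseudogene Gm18258 overlaps Bnip3, and the noncoding genes Gm47112 and 0610040F04Rik overlap Higd1a and Bhlhe40. None of these last was among the genes tested. The libraries came from a strand-specific kit, but the strand setting of the counting is not given in the sources used here. The log2 difference of rejuvenated old from old MSCs was 0.49 for Shmt2, 0.05 for Ufsp2, 0.41 for Arhgef39 and 0.48 for Tpm2, and their part in the values of the overlapped genes was not tested.

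Rejuvenated old replicate 5 was the highest of its group for 7 of the 10 genes, and for 22.2% of all genes tested. Its median deviation from the group mean over the 10 genes was 0.22 on the log2 scale, where the other 5 libraries had −0.11 to 0.03. For Ankrd37 it held 312 normalized counts, where the others held 124 to 172. Without it the log2 differences from old MSCs were 4.18 for Ndufa4l2, 2.07 for Ankrd37, 1.27 for Bnip3 and 1.07 for Higd1a.

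**Figure D3:**
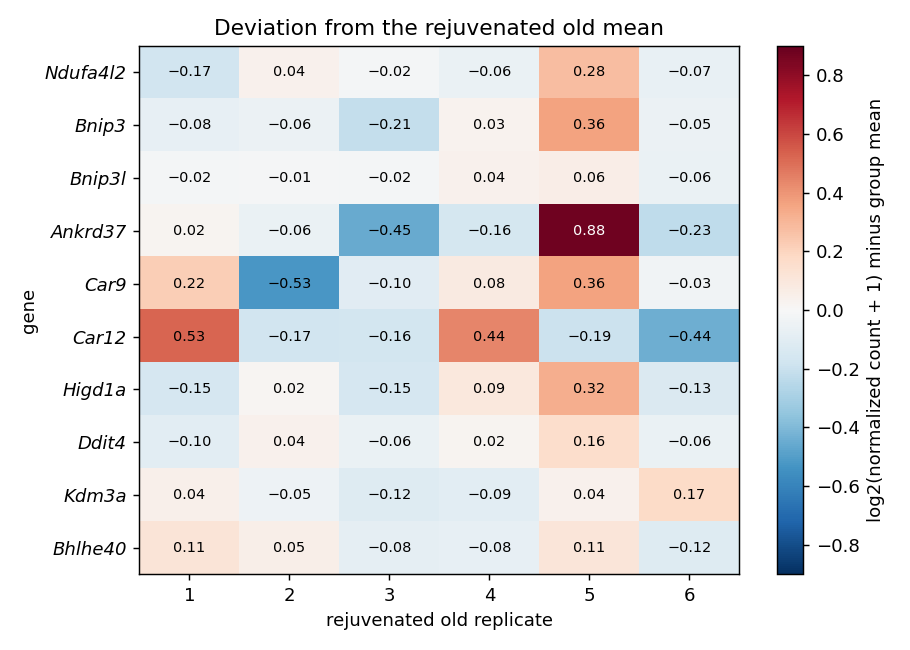
Deviation of each rejuvenated old library (columns, by replicate number) from its group's mean, for the 10 genes (rows), in units of log2(normalized count + 1), printed in each cell and shown by color. Replicate 5 has the highest value for 7 genes, with 0.88 for Ankrd37.

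Rejuvenated old replicate 1 held some transcripts of genes that were read almost only in young MSCs. There were 11 genes that averaged 500 normalized counts or more in young MSCs and had at most 3 reads in each old library, and their sum in replicate 1 was 1.59% of the young mean. In the other 5 rejuvenated old libraries it was 0.0418% to 0.114%, and in the old libraries 0.0193% to 0.0387%. At a share of 1.59% the young level of Ndufa4l2 comes to 35.8 normalized counts, and at the highest share of a single gene (Car6, 8.64%) to 195. Replicate 1 held 2686 normalized counts of Ndufa4l2, the lowest of its group. For Car9 these shares come to 2.51 and 13.7, where replicate 1 held 60.8. For Car12 they come to 2.84 and 15.5, where replicate 1 held 17.5, the highest of its group. The part of young transcripts in the values of replicate 1 was not tested. Without replicate 1 the log2 difference of Ndufa4l2 from old MSCs was 4.27, that of Car9 0.54 and that of Car12 −1.79. With replicates 1 and 5 both left out, an alternative chosen after the values were seen, the differences were 4.21 for Ndufa4l2, 2.03 for Ankrd37, 1.27 for Bnip3, 1.09 for Higd1a, 0.44 for Car9 and −1.77 for Car12, and 8 of the 10 genes were called, Bnip3l no longer among them.

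Transcripts of the oxygen sensing machinery changed in part. Of 9 tested genes for HIF subunits and oxygen sensors, 2 were higher and 3 lower by limma in rejuvenated old MSCs than in old MSCs. That is 55.6% called, where 41.6% of all genes tested were. Egln3, a prolyl hydroxylase that is itself a HIF target, rose from 49.6 to 65.4 normalized counts in old (median 61.8) to 260 to 378 in rejuvenated old MSCs (median 300.5), by 2.37 ± 0.11 on the log2 scale (adjusted p = 2.57e-13). Egln1, the main oxygen sensor, rose by 0.95 ± 0.05 (adjusted p = 2.67e-13) and had medians of 2210.4 (old), 4235 (rejuvenated old) and 4297 (young). Hif1a transcripts fell by 0.29 on the log2 scale (SE 0.07, adjusted p = 0.00304), with overlapping libraries, and those of its partner Arnt fell by 0.20 (adjusted p = 0.000193). Hif1an, the asparaginyl hydroxylase that holds back HIF, and Epas1 are named after their values were seen. Hif1an fell by 0.20 (adjusted p = 6.76e-05). Epas1, which encodes HIF-2α, was at a median of 7334 normalized counts in old and 7556 in rejuvenated old MSCs (adjusted p = 0.72) but at 58.7 in young MSCs, a log2 difference of young from old of −6.89 ± 0.07 (adjusted p = 2.61e-27). HIF is governed mainly by protein stability, which these data do not measure.

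Beyond the 10 genes, 37 further hypoxia targets outside glycolysis were followed as a list, all of them tested. In rejuvenated old against old MSCs 25 of them were higher and 5 lower by limma, which is 81.1% called where 41.6% of all genes tested were, and their median log2 difference was 0.37. In young against old MSCs 15 were higher and 17 lower, 86.5% called where 85.7% of all genes tested were, with a median of −0.12. Both comparisons use the same old libraries. This list and the other lists were chosen with earlier results of these data known. Their counts and the adjusted p-values of their genes are therefore a description and no independent support. The rises between old and rejuvenated old MSCs ran from 0.17 to 4.22 on the log2 scale.

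The largest was that of Cox4i2, the hypoxia-responsive isoform of complex IV subunit 4, which had a median of 6.46 normalized counts in old and 4.72 in young MSCs but 96.1 to 209.5 in every rejuvenated old library. Cox4i2 was 4.22 ± 0.27 higher in rejuvenated old than in old MSCs (adjusted p = 4.15e-11), while young and old MSCs overlapped (−0.12 ± 0.27, adjusted p = 0.674). Vldlr, a lipoprotein receptor, rose by 1.79 ± 0.13 (adjusted p = 3.4e-10), from a median of 154 to 473, and stood at 5301 in young MSCs. Fam162a, a mitochondrial protein linked to cell death under hypoxia, rose by 1.36 ± 0.05 (adjusted p = 1.73e-14). Adm, which encodes the vasodilator peptide adrenomedullin, rose by 1.32 ± 0.09 (adjusted p = 1.45e-10) from a median of 1679 to 4134, although young MSCs held only 93.4.

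Vegfa, the main angiogenic factor of the hypoxia response and named here after its values were seen, rose by 0.73 ± 0.05 in rejuvenated old MSCs (adjusted p = 2.92e-10). In young MSCs Vegfa was 0.16 ± 0.05 lower than in old MSCs (adjusted p = 0.00765). Among the 5 targets that fell between old and rejuvenated old MSCs were Hmox1 (heme oxygenase, fell by 0.48, adjusted p = 3.62e-10) and Plin2 (a lipid droplet protein, fell by 0.32, adjusted p = 5.36e-07), also named after their values were seen.

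**Figure D4:**
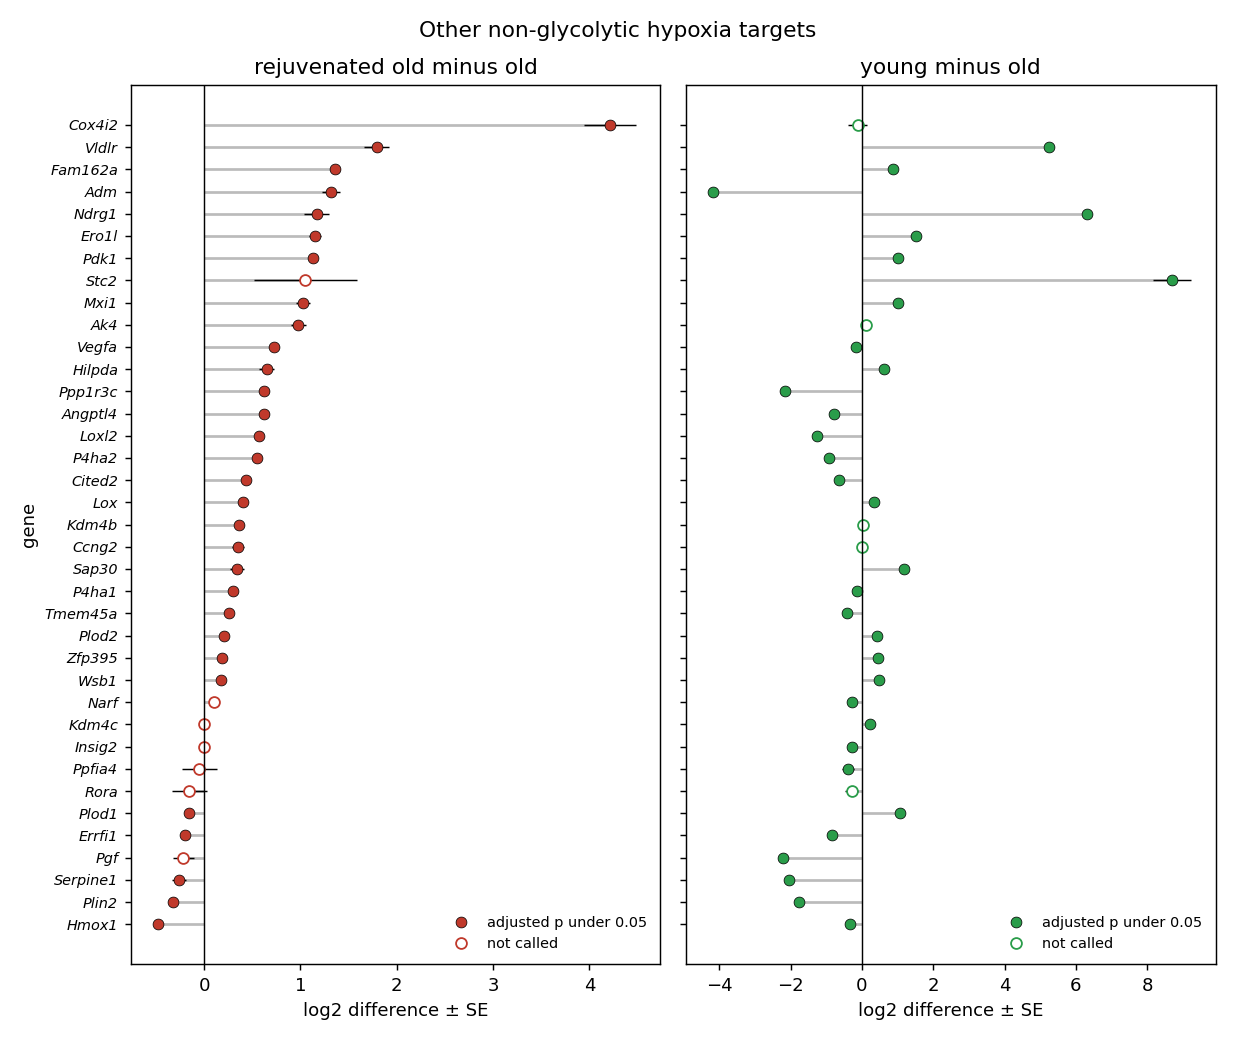
Log2 difference ± SE from old MSCs of the 37 other hypoxia targets in rejuvenated old MSCs (left) and in young MSCs (right, on a wider axis), in the order of the left panel; filled points had an adjusted p under 0.05 by limma. On the left 25 filled points lie above 0 and 5 below, and on the right 15 above and 17 below.

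Complex IV subunits were counted because Ndufa4l2 is related to one of them. Of 15 tested, 6 were higher and 2 lower in rejuvenated old MSCs than in old MSCs, with a median log2 difference of 0.05. That is 53.3% called, where 41.6% of all genes tested were. The rises were largest in the tissue-specific isoforms, each at low counts. Besides Cox4i2, these were Cox7a1 (2.46 ± 0.25, adjusted p = 5.13e-08, from a median of 20.5 to 114), Cox6a2 (1.32 ± 0.39, adjusted p = 0.00904, with overlapping libraries) and Cox6b2 (1.10 ± 0.26, adjusted p = 0.00162). Ndufa4, the paralog of Ndufa4l2 and a standard subunit, fell by 0.26 on the log2 scale (SE 0.05, adjusted p = 0.000257), from a median of 9911 to 8151, and stood at 5608 in young MSCs.

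Other paralogs did not follow the 10 genes as a group. Of 15 paralogs tested, 2 were higher and 7 lower in rejuvenated old MSCs than in old MSCs, with a median of −0.19. That is 60% called, where 41.6% of all genes tested were. Bhlhe41, the paralog of Bhlhe40, fell by 0.72 (adjusted p = 0.000549) and the demethylase Jmjd1c by 0.19 (adjusted p = 0.00261), while Kdm3b (−0.08, adjusted p = 0.179), Higd2a (−0.03, adjusted p = 0.659) and Ddit4l (−0.26, adjusted p = 0.168) were not called. Ddit4l libraries did not overlap, however, with 2378 to 2702 normalized counts in old and 1928 to 2180 in rejuvenated old MSCs. Young MSCs, which share the fit, held 2.23 to 7.09. With only old and rejuvenated old MSCs in the limma fit, Ddit4l was called lower (adjusted p = 6.6e-05). Of the carbonic anhydrases, Car3 fell by 1.41 (adjusted p = 0.00024) and Car8 by 0.62 (adjusted p = 0.00548). Car6 was called higher (1.86 ± 0.63, adjusted p = 0.0206), but replicate 1 held 64.9 normalized counts where the other rejuvenated old libraries held 0 to 5.71, and without replicate 1 the difference was 1.06.

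Mitophagy genes other than the receptors above moved in both directions. Of 19 tested, 5 were higher and 8 lower in rejuvenated old MSCs than in old MSCs, with differences smaller than that of Bnip3. That is 68.4% called, where 41.6% of all genes tested were. Ulk1, the kinase that starts autophagy, fell by 0.29 (adjusted p = 2.99e-06) and the fusion protein Mfn2 by 0.29 (adjusted p = 0.000352). Map1lc3a, an autophagosome protein, rose by 0.29 (adjusted p = 0.000389) and the autophagy receptor Optn by 0.28 (adjusted p = 7.48e-05).

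The other signals known to act on Ddit4 were followed as a pair of lists. Of 10 ATF4 targets, 8 were higher and 1 lower in rejuvenated old MSCs than in old MSCs (median 0.39). In young against old MSCs 9 were higher and 1 lower (median 1.36). That is 90% and 100% called, where 41.6% and 85.7% of all genes tested were. Trib3, a pseudokinase of the stress response, rose by 1.81 ± 0.16 (adjusted p = 1.1e-08), Chac1, which breaks down glutathione, by 1.54 ± 0.17 (adjusted p = 2.06e-07), and asparagine synthetase Asns by 0.70 ± 0.07 (adjusted p = 2.39e-08). Vldlr belongs to this list too. Of 9 glucocorticoid targets, 1 was higher and 4 lower in rejuvenated old MSCs than in old MSCs, 55.6% called where 41.6% of all genes tested were. Klf9 fell by 1.02 (adjusted p = 7.82e-09), Sgk1 by 0.54 (adjusted p = 3.44e-06) and Fkbp5 by 0.24 (adjusted p = 0.000968), and Cebpd rose by 0.83 ± 0.08 (adjusted p = 1.59e-08).

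The cells were checked against marker lists, since in bulk RNA fewer cells of a type and less RNA per cell cannot be told apart. Of the surface markers that the study found on its cells, Ly6a and Cd44 were read in every group. The study found CD34, CD45 (Ptprc) and CD31 (Pecam1) absent by flow cytometry. Cd34 had 6787 to 7191 normalized counts in young, 19.4 to 28.0 in old and 24.2 to 402 in rejuvenated old MSCs, and Pecam1 was too low to be tested. These are transcripts, where the study measured surface protein. Thy1, a common stromal marker, had at most 3 reads in every old library. The 10 macrophage markers summed to 13571 to 16894 normalized counts in old, 13474 to 16514 in rejuvenated old and 926 to 1047 in young MSCs. All 10 were lower in young than in old MSCs by limma, where 44.1% of all genes tested were lower. Adgre1, Itgam, Ptprc and Tyrobp were at or under 3 reads in every young library. Between rejuvenated old and old MSCs 1 of the 10 macrophage markers was higher (Itgam, 0.48 ± 0.13, adjusted p = 0.00548) and 1 lower (Cd68, fell by 0.32, adjusted p = 0.000102). That is 20% called, where 41.6% of all genes tested were. All 10 macrophage markers were thus lower in young than in old MSCs, while of the 10 hypoxia targets 9 were higher and Ddit4 was lower. The part of cells with these markers in the differences of the 10 hypoxia targets was not tested.

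Ndufa4l2, Cox4i2 and Higd1b are known from pericytes, the mural cells of small vessels. The 11 pericyte markers summed to 8396 to 9508 normalized counts in old, 7532 to 8388 in rejuvenated old and 2074 to 2249 in young MSCs. Much of this sum was Notch3, with medians of 5134 in old, 4459 in rejuvenated old and 378 in young MSCs. The markers did not all go the same way, although their sum was lower in young MSCs: between young and old MSCs 3 of the 7 tested were higher in young and 3 lower. That is 85.7% called, where 85.7% of all genes tested were. Of the 7 tested, Cox4i2 was higher and Notch3 (fell by 0.22, adjusted p = 0.00433) and Anpep (fell by 0.38, adjusted p = 6.69e-06) were lower in rejuvenated old MSCs than in old MSCs. That is 42.9% called, where 41.6% of all genes tested were. Kcnj8 had at most 3 reads in every young and every old library, and Higd1b in every library of all 3 groups.

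Genes whose levels varied most like those of Ndufa4l2 within groups were ranked by Pearson's r of deviations from the group means over the 18 libraries. Genes known only by a predicted or clone name, or without a symbol, were passed over. The highest of the rest were Nudt7 (0.94), Arl6ip4 (0.78), Fam162a (0.78), mt-Rnr1 (0.77) and Afmid (0.77). Without rejuvenated old replicate 5 these values were 0.90, 0.58, 0.42, 0.40 and 0.59. Among the other 9 genes Bnip3 was highest, at 0.70 with that library and 0.24 without it. Genes of 1 library share its size factor, and the ranking is a description. Nudt7, a peroxisomal hydrolase of coenzyme A, differed by 0.06 between rejuvenated old and old MSCs on the log2 scale, where Ndufa4l2 differed by 4.23.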

How the data were processed

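RNA of 18 MSC cultures was sequenced after library preparation with a stranded mRNA kit. The authors used HISAT2 for alignment to mm10, StringTie and featureCounts for counting and DESeq2 for normalization (versions, annotation and strand setting are not given in the sources used here). What was deposited is a signal for every gene in every library, namely its read count over a size factor. Each value was a whole multiple of 1 step per library (100% of values, largest departure 5.33e-05 of a read), which gave back the reads. The 45 pairs of libraries within groups all differed by more than sampling noise (chi-square per degree of freedom 2.54 to 22.3).

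The deposited signal was tested as log2(value + 1) with limma 3.58.1 (R 4.3.3, trend on the mean), 1 mean per group, over genes with a mean of at least 10, with Benjamini-Hochberg adjustment. edgeR 4.0.16 and DESeq2 1.42.0 on the recovered reads were alternatives. The procedure was also run on simulated counts drawn from the old means, with the same spread setting for every gene and no difference in young libraries. These data are less simple, and the simulation is not used as support here. Library groups came from the labels. Positions and lengths came from the GENCODE M21 and RefSeq annotations of GRCm38. The 10 genes and all lists were chosen with earlier results of these data known. Beside the 10 genes, the text names from each list up to 4 genes with the largest difference among those called in rejuvenated old against old MSCs, the direct paralogs, and the 5 genes most like Ndufa4l2. Names outside this rule are marked in the text, apart from overlapping neighbours, the surface markers of the study and markers at or under 3 reads. Alternatives were the pseudocount, the filter, the scaling, the groups in the fit, a block for the replicate number, tests on counts and the omission of libraries.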

Additional observations from a re-analysis of the deposited data

Results flagged for a closer look

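The 6 libraries of a group were searched for a highest or lowest value whose gap to the nearest other exceeded Dixon's 95% critical value as a share of the group's range, for each gene named. This was met in 20 of 153 groups of values (13.1%), where chance gives about 1 in 20.

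Among the 10 genes, Bnip3l had 6166 normalized counts in young replicate 3, above the 5443 to 5623 of the others. Ankrd37 had 312 in rejuvenated old replicate 5, above 124 to 172. Kdm3a had 1552 in old replicate 1, below 1691 to 1765.

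Rejuvenated old replicate 5 also stood apart as the highest library for Cox4i2 (209.5, others 96.1 to 134) and Fam162a (10027, others 7289 to 8090) and the lowest for Klf9 (473, others 645 to 714). Rejuvenated old replicate 1 was the highest for Vldlr (689, others 390 to 476), Car6 (64.9, others 0 to 5.71), Sgk1 (1131, others 751 to 883) and Cd34 (402, others 24.2 to 41.9), and rejuvenated old replicate 4 for Kdr (9.66, others 1.89 to 4.66).

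In old MSCs replicate 1 was the highest for Cox6a2 (5.38) and Car6 (1.08), replicate 2 for Trib3 (222.5), Chac1 (218) and Kdr (19.7), and replicate 4 the lowest for Optn (1713) and the highest for Notch3 (5837). In young MSCs replicate 2 was the lowest for Mfn2 (1173) and replicate 3 the highest for Itgam (2.23).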

How the results depend on the processing

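Under 29 alternatives no log2 difference of the 10 genes from old MSCs changed sign. With a pseudocount of 10, Car12 in rejuvenated old MSCs moved to −1.19 and Car9 in young MSCs to 1.92, and with each library scaled to the same total Bnip3l in young MSCs moved to 1.27. The median of the 10 genes in young MSCs was 1.81 at the same total. In rejuvenated old MSCs it was 0.37 without replicates 1 and 5, chosen after the values were seen. Leaving out single libraries gave medians of 0.43 to 0.52 in rejuvenated old and 1.72 to 1.75 in young MSCs, 30 to 31 and 31 to 33 of the other hypoxia targets called, and 5442 to 5995, 12141 to 12357 and 12117 to 12288 genes called in rejuvenated old against old, young against old and young against rejuvenated old MSCs. Cox4i2 in young against old MSCs, not called, ran from −0.30 to 0.0034 (without old replicate 4). On the recovered reads edgeR called 6213 and DESeq2 6345 genes in rejuvenated old against old MSCs, where limma called 5971. At the same total, 45.5% of these calls were higher, against 50.5%. Of the 10 genes, Ddit4 gained a call in this comparison under 4 alternatives and Bnip3l lost its call under 1 (without rejuvenated old replicates 1 and 5). Among other named genes, Lepr, Kdr, Cd34, Car6 and Car8 lost a call under some alternative and Ddit4l gained one under 4. The cause was not tested.

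Samples with the same replicate number did not deviate together (r from −0.152 to 0.074 over 18 pairs, 0 of which had their own number as the best match). No pairing by number was thus seen, but a shared source with a small effect could be missed this way. With the replicate number as a block 5769 genes were called in rejuvenated old against old MSCs.

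Depth limited Car12 in rejuvenated old MSCs, at 9 to 17 reads per library, and Cox4i2 in the other groups.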

Other observations

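Markers of other cell types gave further values. Of 10 marrow stromal markers, 3 were higher and 4 lower by limma in rejuvenated old MSCs than in old MSCs, 70% called where 41.6% of all genes tested were. Ly6a (Sca-1), a marker of mouse MSCs, rose by 1.07 ± 0.10 on the log2 scale (adjusted p = 1.67e-08). Collagen gene Col1a1 fell by 0.41 (adjusted p = 3.05e-07), Cd44 by 0.30 (adjusted p = 0.000176) and the leptin receptor Lepr by 0.31 (adjusted p = 0.0234). Of 4 tested endothelial markers, Cd34 was called higher (1.16 ± 0.41, adjusted p = 0.0271, and 0.57 without replicate 1) and Kdr lower (fell by 0.91, adjusted p = 0.02). That is 50% called, where 41.6% of all genes tested were. With single libraries left out, the call was lost for Lepr without old replicate 1 or 2 or rejuvenated old replicate 1 or 5. It was lost for Kdr without old replicate 2 or rejuvenated old replicate 6, and for Cd34 without old replicate 1. With only 2 groups in the limma fit Kdr (adjusted p = 0.053) and Cd34 (adjusted p = 0.06) also lost it. Lepr also lost it with rejuvenated old replicates 1 and 5 both left out (adjusted p = 0.2). Cd34 had 6787 to 7191 normalized counts in young MSCs and 19.4 to 28.0 in old MSCs.

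The median log2 difference of young from old MSCs was not even over the genome. It was −0.69 on chromosome 1, −0.46 on chromosome 12, −0.75 on chromosome 16 and 0.61 on chromosome 7. On the other chromosomes that hold any of the 10 genes it was −0.19 (chromosome 10) to 0.20 (chromosome 9). For rejuvenated old against old MSCs the medians of all chromosomes listed lay between −0.04 and 0.06.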
